A study of Mus musculus with 3 samples.

Results

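The acyl-CoA thioesterase family was described here across heart RNA of sham, AAC and AAC + DAPA mice. The 9 genes Acot1, Acot2, Acot3, Acot4, Acot7, Acot8, Acot11, Acot12 and Acot13 were chosen from a list of gene names, with earlier values of the same 3 arrays already known, and all 9 were measured among 19505 genes. The sham group was operated on without tying the ligature, and like the AAC group it was given saline. The AAC group underwent abdominal aortic constriction, in which a ligature narrows the abdominal aorta and the heart pumps against a higher pressure. The AAC + DAPA group underwent AAC and then received dapagliflozin, an inhibitor of the kidney sodium-glucose cotransporter SGLT2, with the drinking water for 12 weeks (25 mg/kg each day). All groups were wild-type C57BL/6 mice labelled male, 10 weeks old at the operation by the labels (the methods give a younger age when the mice were obtained), and each group was measured on 1 Affymetrix array of heart RNA. The labels and methods do not say if the RNA of a group was pooled over animals. With 1 array per group no difference has a replicate check, and no statistical test was made. A gene was called higher or lower when 2 arrays differed by at least 1.5-fold, which is the threshold of the study.

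Acyl-CoA thioesterases split the thioester bond of an acyl-CoA and release a free fatty acid and coenzyme A. They work against the acyl-CoA synthetases, and so help to set how much activated fatty acid and how much free coenzyme A a compartment holds. The family has a pair of unrelated folds. Acot1 to Acot6 form the type I group, whose genes lie side by side, and the others belong to the type II group, built on the hotdog fold. In the heart these enzymes are known for their link to fatty acid oxidation, and Acot1 and Acot2 are known in mice as genes that the nuclear receptor PPARα can induce.

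The promoters of Acot1 and Acot2 are shown because these genes had the widest differences, and that of Acot12 because, of the members with a window, it alone held a match, with a mismatch, to the receptor motif DR1. RefSeq windows of the GRCm38.p6 build, from 250 bases before a transcription start to 50 after it, were matched for 8 of the 9 genes. Acot13 had no window, and Acot3 and Acot11 had several. Each window was searched on both strands for the half-site AGGTCA, for its direct repeat with 1 base between (DR1, the form PPARα binds with its RXR partner, at most 1 mismatch), for the E-box CACGTG and for the D-box TTATGTAA (at most 1 mismatch). The DR1 contains the half-site, so these matches can overlap. Capitals mark a match and lower case marks the rest, and both strands of the motif are marked alike. The window of Acot1 lies at chr12:84009252-84009551 on the plus strand, that of Acot2 at chr12:83987611-83987910 on the plus strand and that of Acot12 at chr13:91741271-91741570 on the plus strand.
Acot1: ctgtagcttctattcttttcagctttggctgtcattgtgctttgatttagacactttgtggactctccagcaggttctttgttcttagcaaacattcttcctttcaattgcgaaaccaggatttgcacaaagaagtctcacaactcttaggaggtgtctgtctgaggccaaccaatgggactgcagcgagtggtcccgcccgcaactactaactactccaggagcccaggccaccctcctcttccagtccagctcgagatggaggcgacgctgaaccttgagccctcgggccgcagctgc
Acot2: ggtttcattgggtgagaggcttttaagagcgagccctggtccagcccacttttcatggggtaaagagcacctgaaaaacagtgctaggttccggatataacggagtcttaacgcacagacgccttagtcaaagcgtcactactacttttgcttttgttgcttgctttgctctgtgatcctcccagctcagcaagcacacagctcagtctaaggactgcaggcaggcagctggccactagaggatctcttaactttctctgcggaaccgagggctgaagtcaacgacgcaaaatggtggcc
Acot12: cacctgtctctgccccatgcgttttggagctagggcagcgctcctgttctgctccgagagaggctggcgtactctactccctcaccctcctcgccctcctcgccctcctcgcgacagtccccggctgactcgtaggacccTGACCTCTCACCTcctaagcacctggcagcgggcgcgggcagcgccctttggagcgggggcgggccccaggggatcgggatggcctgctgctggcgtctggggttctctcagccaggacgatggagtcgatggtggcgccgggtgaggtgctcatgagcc
No match to any of the 4 motifs was found in the windows of Acot1 and Acot2, which says only that these letters are not in these windows. The window of Acot12 held a DR1 with 1 mismatch, on the minus strand and starting 110 bases before the start. Over all 32851 windows of this length, 0.554% held such a DR1, 16.3% a half-site, 7.15% an E-box and 16.1% a D-box. Among the other members, Acot3 held a half-site in each of its overlapping windows, and Acot4 a half-site, an E-box and a D-box. Acot11 held an E-box in the window at chr4:106799782-106800081 and no match in that at chr4:106804958-106805257. A match is a description of letters and not a binding site.

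Acot1 and Acot2 were the members with the widest differences. Acot1, the cytosolic long-chain enzyme, had a log2 level of 7.85 for sham, 5.87 for AAC and 7.32 after AAC with DAPA. The AAC array was low and the other arrays were high, with AAC + DAPA between AAC and sham. The AAC value lay inside the range of genes taken as background on that array (receptor genes, 2.90 to 6.00), so the folds against it are uncertain. Background signal could narrow them, and error of the single array could narrow or widen them. Compared with sham, Acot1 was 3.94-fold lower in AAC (measured log2 difference −1.98). Compared with AAC, AAC + DAPA was 2.73-fold higher for Acot1 (measured log2 difference 1.45). In AAC + DAPA it remained 1.44-fold under sham, inside the threshold.

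Acot2, the enzyme of the mitochondrial matrix, had a log2 level of 15.33 for sham, 13.82 for AAC and 15.43 after AAC with DAPA. Here too the AAC array was low, while the sham and AAC + DAPA arrays lay close together. Compared with sham, AAC was 2.85-fold lower for Acot2 (log2 difference −1.51), and compared with AAC, AAC + DAPA was 3.05-fold higher (log2 difference 1.61). The difference from AAC to AAC + DAPA was 107% of the difference from sham to AAC, so that AAC + DAPA stood 0.10 above sham on the log2 scale. Both genes have a single probe on this array, and no spread of their own can be given. Over the 55 genes with several probes, the SD between probes of one gene was 0.31 for AAC minus sham, 0.26 for AAC + DAPA minus AAC and 0.19 for AAC + DAPA minus sham (log2), a measure that holds no difference between animals. The differences of Acot1 and Acot2 from the AAC array were wider than these values. For AAC + DAPA minus sham, the difference of Acot2 was narrower and that of Acot1 (−0.53) was wider.

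**Figure D1:**
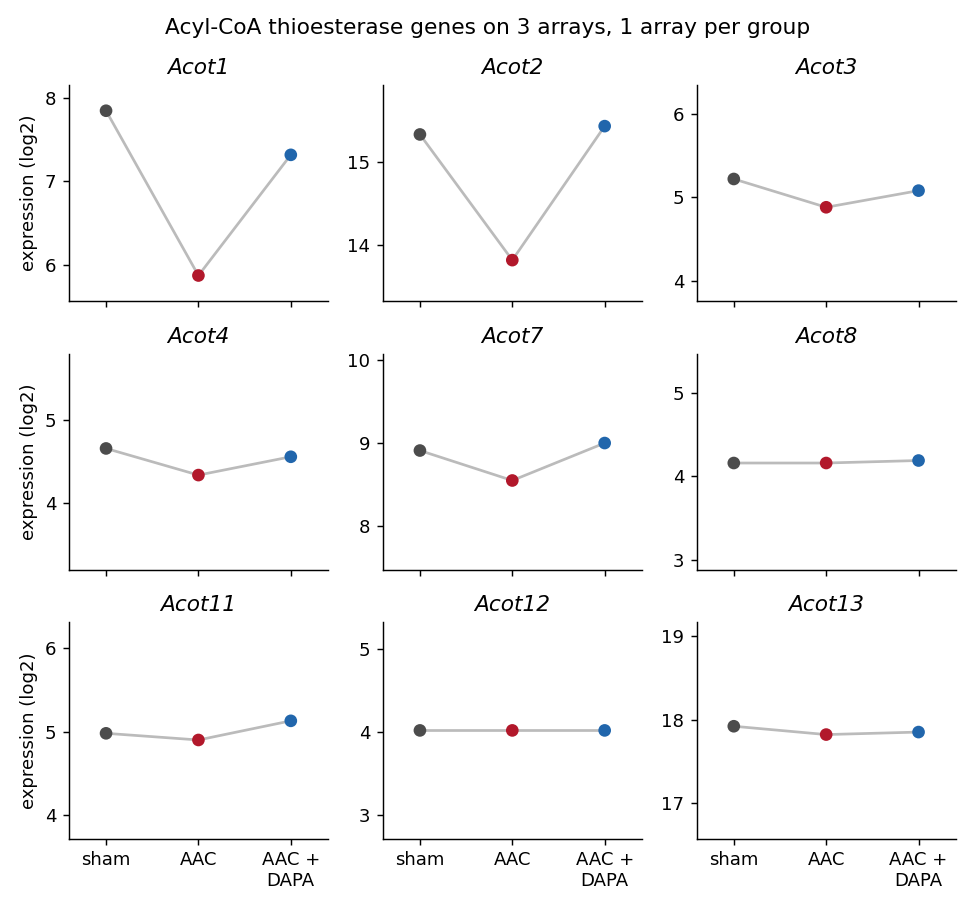
Expression of each acyl-CoA thioesterase gene (vertical axis, log2, the same span of 2.6 in every panel) on the sham, AAC and AAC + DAPA arrays, 1 point per array and no error bars. Acot1 drops from 7.85 to 5.87 and stands at 7.32 in AAC + DAPA, Acot2 goes from 15.33 to 13.82 and 15.43, and the other panels are nearly flat.

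Compared with sham, the AAC group had 2 of the 9 genes lower and 0 higher, where 4.98% of all genes were lower and 4.88% higher. Compared with AAC, the AAC + DAPA group had 2 higher and 0 lower, where 4.16% of all genes were higher and 4.18% lower. In AAC + DAPA compared with sham, 0 of 9 were higher and 0 lower, against 3.22% and 3.38% of all genes. The same 2 genes, Acot1 and Acot2, were low on the AAC array against both others, a combination held by 1.92% of all genes. The AAC array serves both comparisons, and any measurement error of it would push them in opposite directions. The members were chosen with these values known, so the counts are a description and do not support a direction.

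Values that move with the AAC array were measured beside these results. The Y-linked gene Eif2s3y had log2 levels of 2.50, 11.71 and 2.72 for sham, AAC and AAC + DAPA, and Uty 3.09, 10.65 and 2.96, although all mice are labelled male. The AAC array therefore differed from both others in Y-linked genes as well as in condition, and the parts of these in the low Acot1 and Acot2 values cannot be told apart. None of the 9 genes lies on the X or Y chromosome (0 of 9). Of 9 macrophage markers, the AAC array had 7 higher relative to sham, where 4.88% of all genes were higher. AAC + DAPA had 6 lower relative to AAC, where 4.18% of all genes were lower. The median log2 level over the list was 6.62, 8.63 and 7.30 in the same order. In RNA of a whole tissue fewer cells of a type and less RNA per cell cannot be told apart. The 16 cardiomyocyte markers had a median level of 17.69, 17.62 and 17.70, and the contractile genes Myh6, Tnnt2, Tnni3 and Myl2 were high and within 1.5-fold on the 3 arrays, as the label heart implies. Of these 16, Mybpc3 was higher in AAC (16.32, 17.10 and 16.93) and Actc1 lower (18.65, 18.03 and 18.01). The atrial light chain Myl7 stood at 3.54, 3.30 and 3.30, below the 25th percentile of each array. Of 8 adipocyte markers, 1 was lower in AAC than in sham (Cidea), where 4.98% of all genes were lower. Against AAC, 2 were higher in AAC + DAPA (Cidea and Cidec), where 4.16% of all genes were higher. Cidea alone passed 1.5-fold in both comparisons, as Acot1 and Acot2 did, and Cidec lay inside the background range of the receptor genes. Adipoq stood at 3.33, 2.89 and 3.33 and Plin1 at 3.29, 3.28 and 3.46, also below the 25th percentile (3.82 to 3.85). Cidea was 9.66, 8.82 and 9.75, Cidec 4.10, 3.89 and 4.53 and Fabp4, which other heart cells also express, 17.80 on each array, and the median level of the list was 3.79, 3.60 and 3.85. The part of these cell types in the thioesterase values was not tested.

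**Figure D2:**
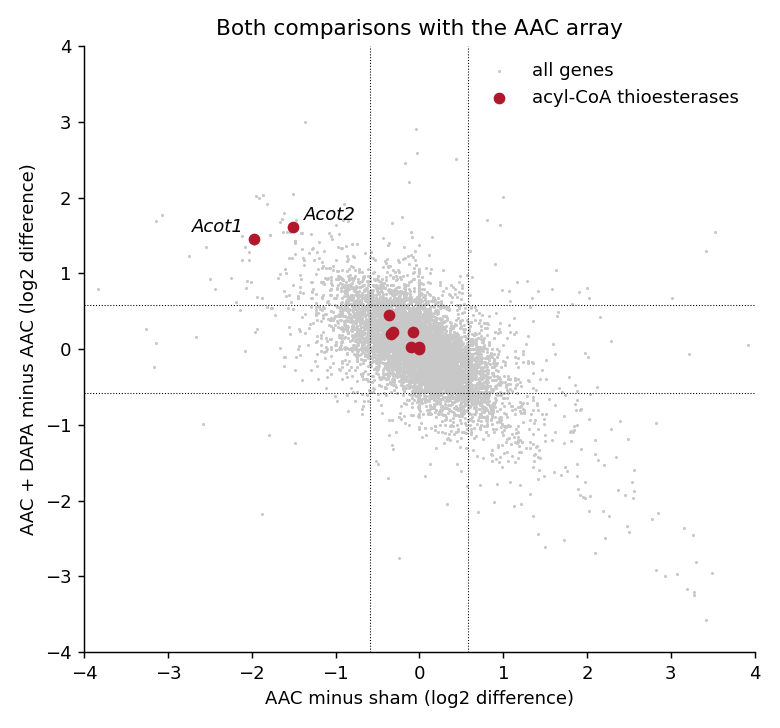
Log2 difference of AAC minus sham (horizontal axis) against that of AAC + DAPA minus AAC (vertical axis) for every gene, with dotted lines at 1.5-fold and 16 genes beyond the axes. The comparisons share the AAC array, which tilts the cloud by construction. Acot1 (−1.98, 1.45) and Acot2 (−1.51, 1.61) lie outside the lines at upper left and the other 7 thioesterases lie within them.

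The remaining type I members are peroxisomal. Acot3, a long-chain enzyme, had log2 levels of 5.22, 4.88 and 5.08 for sham, AAC and AAC + DAPA, the order kept from here on. Acot4, which prefers succinyl-CoA, was 4.66, 4.34 and 4.56. Both were lowest on the AAC array, by −0.34 and −0.32 against sham, which is about the SD between probes, and neither passed 1.5-fold. In the RefSeq annotation of GRCm38.p6, Acot2 (chr12:83987861-83993877), Acot1 (chr12:84009502-84017670), Acot4 (chr12:84037254-84044723) and Acot3 (chr12:84052144-84060400) follow each other on chromosome 12, and Acot5 and Acot6 come next. Together these 6 genes span 122 kb.

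Along this cluster the differences were smaller in the genes that follow Acot2 and Acot1. Acot5, a medium-chain peroxisomal enzyme, was 2.92, 2.80 and 2.92, and Acot6, a peroxisomal enzyme of branched acyl-CoA, was 3.59, 3.44 and 3.54 (log2). Of the 6 genes of the cluster, 2 passed 1.5-fold, against 1.92% of all genes for the combination of Acot1 and Acot2, and 0 of the 9 measured genes within 250 kb on either side passed it in either comparison. All 6 had their lowest value on the AAC array, where 24.7% of all genes and 0 of the 9 neighbours did. This order is not firm, since Acot3, Acot4, Acot5 and Acot6 lay inside the background range of the receptor genes, and with arrays centred on their medians 53.3% of all genes and 5 of the neighbours were lowest on the AAC array. Pnma1 had the widest difference among the neighbours, 4.64 in sham and 4.23 on the other arrays. The genes of the cluster arose by duplication and resemble each other in sequence. Probe sequences were not used here, and whether RNA of Acot1 or Acot2 also binds the probes of its neighbours was not tested.

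**Figure D3:**
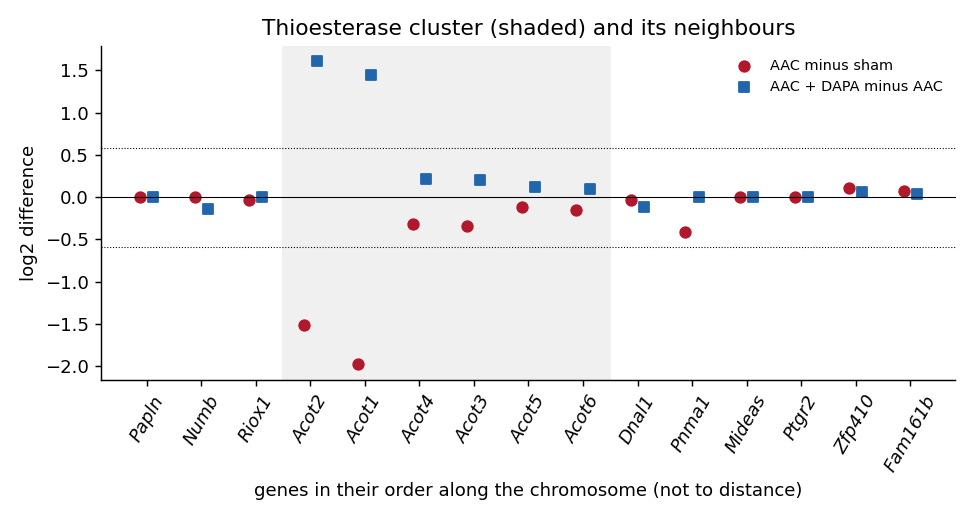
Log2 difference of AAC minus sham (circles) and AAC + DAPA minus AAC (squares) for the 6 thioesterase genes of chromosome 12 (shaded) and the 9 measured genes around them, in chromosomal order and not to distance, with dotted lines at 1.5-fold. Acot2 and Acot1 stand far from 0 in opposite directions in the comparisons, and Acot4, Acot3, Acot5 and Acot6 and the neighbours lie within the lines.

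Among type II members, Acot7 differed most. Acot7, a cytosolic long-chain enzyme known mainly from brain, had log2 levels of 8.91, 8.55 and 9.00. The AAC array was again the lowest, and AAC + DAPA and sham differed by 0.09. The differences were −0.36 and 0.45, 1.28-fold and 1.37-fold, wider than the SD between probes but inside the threshold. Of 8 neuron and glia markers, 0 passed 1.5-fold between AAC and sham. Against AAC, 1 was higher with AAC + DAPA, Uchl1 (5.65, 5.73 and 6.35), where 4.16% of all genes were higher. On the sham and AAC arrays Uchl1 lay inside the background range of the receptor genes. Stmn2 (7.44, 7.90 and 7.90) was higher in AAC than in sham, within 1.5-fold, where Acot7 was lower. Snap25 (4.23, 4.17 and 4.23) and Nefl (3.54 on each array) were level. Both lay inside the background range of the receptor genes, where a change can be missed. The median level of the list was 4.08, 4.03 and 4.14.

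Acot13, also called Them2, acts on long-chain acyl-CoA at mitochondria and stood at 17.92, 17.82 and 17.85 (log2), near the upper end of the array. Its differences of −0.10 and 0.03 were narrower than the SD between probes. Acot11, known from brown fat, was 4.98, 4.90 and 5.13. The brown fat marker Ucp1 was 3.35, 3.32 and 3.36. Acot8, a peroxisomal enzyme of broad range, was 4.16, 4.16 and 4.19. Acot12, which hydrolyses acetyl-CoA in the cytosol of liver, had the same value, 4.02, on each array, as 14.9% of all genes had one value for all 3 arrays. Of 8 hepatocyte markers, Alb was 4.11, 4.21 and 4.15. Against AAC, 1 was higher with AAC + DAPA, Serpina1a (5.75, 5.62 and 6.29), where 4.16% of all genes were higher. On the sham and AAC arrays Serpina1a lay inside the background range of the receptor genes.

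The level of a member bears on how much its flat profile can show. Acot3, Acot4, Acot8, Acot11 and Acot12 lay below the median of their highest array, which was 5.28 to 5.31, and the other 4 lay above it. As a measure of background, 1427 olfactory, vomeronasal and trace amine receptor genes, most of which the heart is not known to use, had levels from 2.88 to 6.06 in sham (2.5th to 97.5th percentile). The same 5 members lay inside this range on the sham array. Their differences also lay inside the range of these receptor genes, which ran from −0.62 to 0.59 for AAC minus sham and from −0.70 to 0.63 for AAC + DAPA minus AAC. Acot1 on the AAC array, at 5.87, was also inside the range of that array, 2.90 to 6.00, whereas its values of 7.85 and 7.32 lay above it. For the 5 low members no change was called. At this level a change can be missed, so the lack of a call is not the same as its absence. Without a threshold, 7 of the 9 members had their lowest value on the AAC array, where 24.7% of all genes did, and the exceptions were Acot8 and Acot12. This count moved with the scaling, from 6 of 9 with arrays centred on the cardiomyocyte markers (18.9% of all genes) to 9 of 9 with arrays centred on their medians (53.3%). The median difference over the 9 members was −0.32 for AAC minus sham and 0.22 for AAC + DAPA minus AAC, and 0.00 over all genes in each.

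Thioesterases outside the 9 were compared to show where the members differ. Of 15 such genes, AAC had 1 higher and 0 lower relative to sham, where 4.88% of all genes were higher and 4.98% lower. AAC + DAPA had 0 past 1.5-fold relative to AAC, where 4.16% of all genes were higher and 4.18% lower. The medians were 0.00 and 0.02. The gene that passed was Ppt1, a lysosomal enzyme that removes palmitate from proteins, at log2 levels of 9.45, 10.50 and 10.65. It was high on both arrays of operated hearts with constriction, unlike Acot1 and Acot2. Acot9, a mitochondrial enzyme of the type II group, was 8.43, 8.21 and 8.29, and Acot10, its close relative, was 3.81, 3.89 and 3.89.

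The reverse reaction is carried out by acyl-CoA synthetases, of which 21 of 23 listed genes were measured. Relative to sham, the AAC array had 1 lower and 2 higher, where 4.98% of all genes were lower and 4.88% higher. Relative to AAC, the AAC + DAPA array had 2 higher and 1 lower, where 4.16% of all genes were higher and 4.18% lower. The median was 0.00 in each comparison. Acsf2, a mitochondrial synthetase of medium-chain acids, was 8.89, 6.81 and 8.16, low on the AAC array like Acot1. The fatty acid transport protein Slc27a1, which also has synthetase activity, was 11.60, 11.32 and 12.12, highest in AAC + DAPA. Acsl6 and Acss3 went the other way, at 4.49, 5.29 and 4.73 and at 3.26, 4.03 and 3.26. Both lay inside the background range of the receptor genes, and Acsl6 did not pass 1.5-fold between AAC and AAC + DAPA.

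Genes that handle coenzyme A itself were the next group, with 12 of 14 measured. Relative to sham, AAC had 2 lower and 0 higher, and relative to AAC, AAC + DAPA had the same 2 higher and 0 lower. Of all genes, 1.92% had this combination. The medians of the list were 0.00 and −0.02. Slc25a42, the carrier that brings coenzyme A into mitochondria, was 8.70, 7.86 and 8.65. Pank4, a relative of the pantothenate kinases, was 7.45, 6.47 and 7.26. Both were low on the AAC array, and AAC + DAPA differed from sham by −0.05 and −0.19. The kinases of coenzyme A synthesis Pank1, Pank2 and Pank3 did not pass 1.5-fold, with values of 10.49, 10.28 and 10.41 for Pank1.

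Of 9 acyl-CoA and fatty acid binding proteins, the same gene was lower in AAC relative to sham and higher in AAC + DAPA relative to AAC (1 gene). Of all genes, 1.92% had this combination. Dbi, the acyl-CoA binding protein, was 14.13, 12.10 and 13.28, and Fabp3, the fatty acid binding protein of heart muscle, 19.58, 19.14 and 19.43. Of 8 genes of the carnitine shuttle, which carries acyl groups into mitochondria, the AAC array had 3 lower than sham, where 4.98% of all genes were lower. AAC + DAPA had 2 above AAC, where 4.16% of all genes were higher. The medians were −0.45 and 0.47. Cpt2 was 13.44, 11.32 and 12.50, and the carnitine acylcarnitine carrier Slc25a20 14.79, 13.64 and 14.53. Crat, which moves acetyl groups to carnitine, was 14.73, 13.41 and 13.69 and stayed 2.06-fold under sham in AAC + DAPA.

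**Figure D4:**
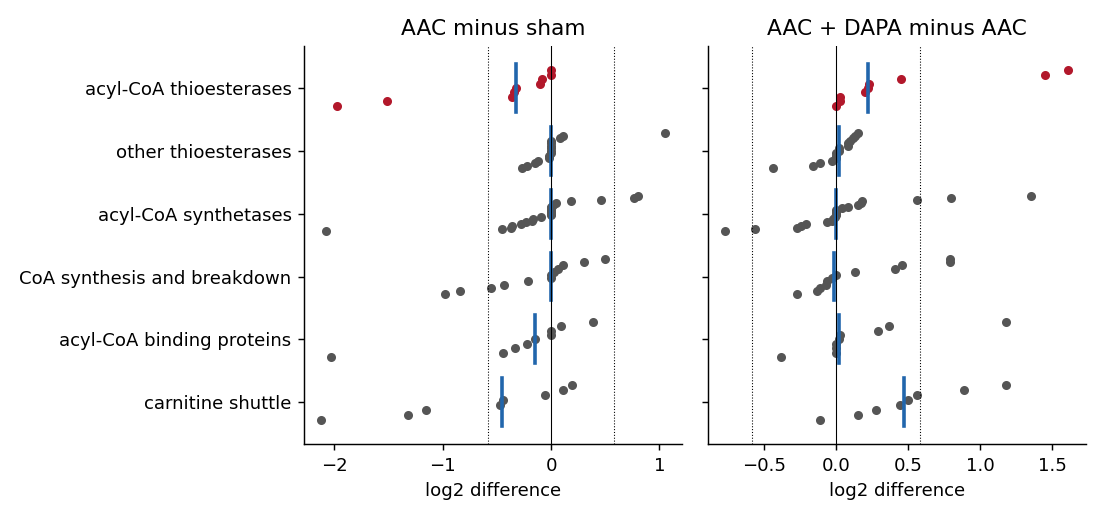
Log2 differences of AAC minus sham (left) and AAC + DAPA minus AAC (right), 1 point per gene, for the thioesterases (red) and related gene lists (grey), with the list median as a blue bar and dotted lines at 1.5-fold. In each list most genes lie between the lines, and the thioesterases past them are Acot1 and Acot2.

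The receptor PPARα, its RXR partners and their coactivators were measured beside these genes. Ppara, which encodes PPARα, had log2 levels of 10.99, 9.89 and 9.62, and its coactivator Ppargc1a was 17.18, 15.58 and 15.47. Both were low on the AAC array and also on the AAC + DAPA array, where Acot1 and Acot2 were within 1.5-fold of sham. These values are RNA levels and do not measure the activity of the receptor. The part of PPARα in the thioesterase values was not tested. The related coactivator Ppargc1b, at 8.66, 7.84 and 8.70, was low on the AAC array alone, in the combination of Acot1 and Acot2. The RXR gene Rxrg was 12.34, 11.69 and 12.01, with AAC + DAPA between AAC and sham and within 1.5-fold of either. Of 7 measured genes of this list, AAC had 5 below sham, where 4.98% of all genes were lower. AAC + DAPA had 1 above AAC, where 4.16% of all genes were higher. The medians were −0.65 and −0.10. Of 15 clock genes, 11 were higher and 3 lower with AAC + DAPA against sham, where 3.22% of all genes were higher and 3.38% lower. Dbp was among those higher, at 12.06, 15.98 and 16.04. Against AAC, 6 of the 15 were higher with AAC + DAPA, where 4.16% of all genes were higher. Arntl (9.90, 5.41 and 6.34) and Npas2 (6.59, 4.58 and 5.46) were lower in AAC and then higher, as Acot1 was. Unlike Acot1, both stayed lower than sham in AAC + DAPA, by 11.8-fold and 2.19-fold. On the AAC array both lay inside the background range of the receptor genes, and Npas2 did so on the AAC + DAPA array too. The part of the clock genes was not tested.

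The genes with the most similar pattern were searched among 10119 genes above the median of their highest array, by the Euclidean distance between their log2 differences in the 2 comparisons with AAC. For Acot1 these were the epoxide hydrolase Ephx2 (distance 0.0608), Acsf2 (0.141), Ypel2 (0.146), the mitochondrial protein Vwa8 (0.177) and Btbd35f25 (0.209). Ephx2 stood at 15.48, 13.51 and 14.90 and Vwa8 at 13.91, 11.88 and 13.16. Of the 5, 1 lies on the X chromosome. For Acot2 they were Btbd35f13 (0.0141), Btbd35f4 (0.0671), Btbd35f14 (0.0985), Gm14625 (0.0990) and the lubricating proteoglycan Prg4 (0.128). Of these 5, 4 lie on the X chromosome, and Btbd35f13 stood at 7.49, 5.99 and 7.59. Of all 19505 genes, 18675 lie on neither the X nor the Y chromosome. Of the 374 genes with the combination of Acot1 and Acot2, 329 lie on neither. Whether these likenesses go with the Y-linked difference of the AAC array was not tested. With 3 arrays the distance rests on 2 differences, and it says nothing of shared function.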

How the data were processed

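Heart RNA was measured on 3 Affymetrix arrays, 1 each for sham, AAC and AAC + DAPA, and 0 columns were left unassigned. The authors deposited normalized log2 values, 1 per probe and array, made with Affymetrix Expression Console according to the submitters' processing notes. The normalization method and probe summary are not given in the sources used here. The methods name a GeneChip PrimeView array, a design for human genes, whereas the platform annotation of the deposited probes is that of mouse. The number of arrays limits the precision.

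Of 22206 probes, 19572 name 1 gene, and probe values were averaged into 19505 genes, all found by Entrez identifier in the RefSeq table. A difference of at least 1.5-fold in log2 values was called, with no filter on low values. The members and gene lists were chosen with earlier results of these data known. All members are named, with up to 4 genes per list by size of difference and the 5 nearest patterns. Other named genes (Acot5, Acot6, Acot10, Pnma1, Pank1, Pank2, Pank3 and single markers) were chosen after their values were seen, as were the neighbours within 250 kb and the receptor genes. Functions were tested on simulated data. Alternatives were median centring, quantile normalization, centring on cardiomyocyte markers, the probe with the highest mean, a 2-fold threshold, filters at the 25th percentile and the median, and, added after the data were examined, leaving out X and Y genes. Python 3.11.15, numpy 2.4.6, pandas 2.3.3 and matplotlib 3.10.9 were used.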

Additional observations from a re-analysis of the deposited data

How the results depend on the processing

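The counts of members (2 lower in AAC against sham, 2 higher in AAC + DAPA against AAC and 0 in AAC + DAPA against sham) were the same under every alternative run. Several of these runs could not change the counts. Each member has a single probe, and none lies on the X or Y chromosome. The filters keep a gene by its highest array, so they could drop only members that were not called. Centring shifts all genes of an array by the same small amount. Over the scalings and probe choices, Acot1 ranged from −2.01 to −1.91 and Acot2 from −1.54 to −1.44 for AAC minus sham, and from 1.38 to 1.5 and from 1.54 to 1.64 for AAC + DAPA minus AAC. Acot8 and Acot12 took either sign around 0, from −0.04 to 0.07 and from −0.03 to 0.07 for AAC minus sham. Centring on the cardiomyocyte markers moved the median of all genes by 0.07 and −0.075. The members with their lowest value on the AAC array numbered 7 of 9 as deposited, 9 with median centring, 8 with quantile normalization and 6 with cardiomyocyte centring, where 24.7%, 53.3%, 49.2% and 18.9% of all genes were so. The 6 cluster genes were lowest there in each, and of the 9 neighbours 0, 5, 4 and 0. The filter at the median kept 4 of 9 members. Without X and Y genes, 1.76% of 18675 genes were at least 1.5-fold lowest on the AAC array. Leaving out the AAC array leaves AAC + DAPA against sham alone, with 0 of 9 members called. No paired analysis was possible because each group has 1 array.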

Other observations

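Genes that mark the hypertrophic heart had several profiles on these arrays. Nppa, which encodes atrial natriuretic peptide, had log2 levels of 14.30, 17.83 and 19.37 for sham, AAC and AAC + DAPA. The fetal myosin Myh7 stood at 14.37, 16.65 and 16.76, and the stress-responsive Ankrd1 at 17.05, 19.20 and 19.62. These 3 genes were high on both arrays of hearts with constriction, on one of which Acot1 and Acot2 were within 1.5-fold of sham. Nppb, which encodes brain natriuretic peptide, stood at 12.97, 13.79 and 13.51, past 1.5-fold above sham in AAC and 1.45-fold above it in AAC + DAPA. Skeletal actin Acta1 stood at 11.72, 10.35 and 13.34, lower in AAC and higher after DAPA, the combination of Acot1 and Acot2. Unlike Acot1 and Acot2, it was 3.07-fold above sham in AAC + DAPA. Of the 5 genes listed, AAC had 4 above sham, Nppb among them, and AAC + DAPA 4, Acta1 among them. Of all genes, 4.88% and 3.22% were higher in these comparisons. Against AAC, AAC + DAPA had 2 of the 5 higher, Nppa and Acta1, where 4.16% of all genes were higher.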
